A study of Homo sapiens with 5 samples.

Results

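Protein-coding genes of the prostate cancer cell line LNCaP were ordered by their transcript level in 1 control siRNA library, and each expression class was set against the binding sites of the lysine demethylase LSD1 and of histone H3 phosphorylated at threonine 6 (H3T6ph). The level of a gene is the sum of FPKM over its RefSeq accessions, without genes for which any accession has the deposited status FAIL. This gave 18637 members among the 22931 gene symbols of the table. Of these, 198 had loci only on unplaced or alternative sequences, where no list has a peak, and 18439 were scored. The classes held 2591 genes at 0 FPKM, 4403 above 0 to 1, 4607 above 1 to 10, 6142 above 10 to 100 and 696 above 100 FPKM. FPKM is a fragment count corrected for transcript length and for sequencing depth.

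LNCaP is a line from a lymph node metastasis of prostate cancer that depends on androgen signalling. The LNCaP chromatin samples, for LSD1 and for H3T6ph, came from untransfected cells, and the RNA came from LNCaP cells transfected with a control siRNA. A further chromatin sample, LSD1 in untransfected VCaP cells, a line from a vertebral metastasis of prostate cancer, was used for comparison. All cells had spent 3 days in medium without phenol red and with charcoal-stripped serum, which removes steroids, ahead of a hormone stimulation that the labels do not specify. With a single sample in each group, replicate error could not be given for any value, and expression and binding were not measured in the same cells.

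LSD1, encoded by KDM1A, removes methyl groups from lysine 4 of histone H3 as part of the CoREST and NuRD repressor complexes. In androgen signalling it has also been described as a coactivator that acts on lysine 9. Phosphorylation of the neighbouring threonine 6 by protein kinase C beta has been reported to block the demethylation of lysine 4. Whether LSD1 and H3T6ph lie at silent or at active genes is therefore a question that expression classes can address.

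The lists held 11673 LSD1 peaks and 4460 H3T6ph peaks in LNCaP, and 9854 LSD1 peaks in VCaP. In LNCaP 678 LSD1 peaks overlapped an H3T6ph peak and 676 H3T6ph peaks overlapped an LSD1 peak. Depth is unknown for the chromatin samples. The control library was estimated at 31.75 to 34.25 M fragments, from the values of 42 olfactory receptor genes. All 10 luminal prostate markers were above 10 FPKM, with KLK3 the highest at 2474 FPKM. In RNA from whole cultures, fewer cells of a type and less RNA per cell cannot be told apart. The highest markers of other cell types were far lower. LAMB3 was at 3.18 FPKM among 5 basal markers, SYP at 1.05 among 5 neuroendocrine markers, COL1A1 at 8.77 among 5 fibroblast and muscle markers and VWF at 1.89 among 4 endothelial markers. CD68, a macrophage protein that other cells also make, was at 11 FPKM among 5 immune markers, and 2 of those 5 and 2 of the endothelial markers were at 0.

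Silent genes carried LSD1 least often. A gene counted as bound if its deposited interval held a peak or had one at most 1 kb away. Of all genes 25.4% had an LSD1 peak by this rule. The shares were 11.2% at 0 FPKM, 24.6% above 0 to 1, 30.5% above 1 to 10, 28.6% above 10 to 100 and 21.0% above 100 FPKM. The 95% Wilson intervals, which cover counting error only and treat genes as independent, ran from 18.1 to 24.2% above 100 FPKM and from 10.1 to 12.5% at 0 FPKM. Binding was thus most frequent in the middle of the range, and the shares above 1 to 10 FPKM (29.2 to 31.8%) and above 10 to 100 FPKM (27.4 to 29.7%) overlapped in their intervals. The class above 100 FPKM exceeded the class at 0 FPKM by 9.75 percentage points (6.61 to 13.1) and lay below the class above 1 to 10 FPKM, with a difference of -9.50 points (-12.7 to -6.06). The first difference was 1.25 points (-1.44 to 4.19) with all gene types and 1.71 points (-0.202 to 4.0) with as many LSD1 as H3T6ph peaks, and both intervals included 0.

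H3T6ph followed the same outline at a lower level. Of all genes 10.7% had an H3T6ph peak within 1 kb. The shares were 4.86% at 0 FPKM, 11.4% above 0 to 1, 12.4% above 1 to 10, 11.9% above 10 to 100 and 7.90% above 100 FPKM. The 3 middle classes had overlapping intervals, between 10.5 and 13.4% in all. The class above 100 FPKM exceeded the class at 0 FPKM by 3.04 points (1.05 to 5.41), and its difference from the class above 1 to 10 FPKM was -4.47 points (-6.50 to -2.05). The first of these turned to -0.867 (-2.65 to 1.23) with all gene types and to -0.0256 (-1.98 to 2.34) with a lowest class below 0.1 FPKM.

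Wider windows raised every share and flattened the upper end. Within 5 kb, 28.4% of all genes had an LSD1 peak and 12.1% an H3T6ph peak. Within 20 kb these shares were 38.4% and 16.9%. At 20 kb the LSD1 shares were 21.3, 37.4, 43.4, 42.4 and 38.9% in the order of rising class. The difference between the class above 100 FPKM and the class at 0 FPKM was 12.1 points at 5 kb and 17.6 points at 20 kb. At 20 kb the H3T6ph shares were 9.61, 17.5, 18.0, 18.8 and 16.2%. The difference above 100 FPKM against above 1 to 10 FPKM was then -1.80 points, and its interval of -4.60 to 1.32 included 0.

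**Figure D1:**
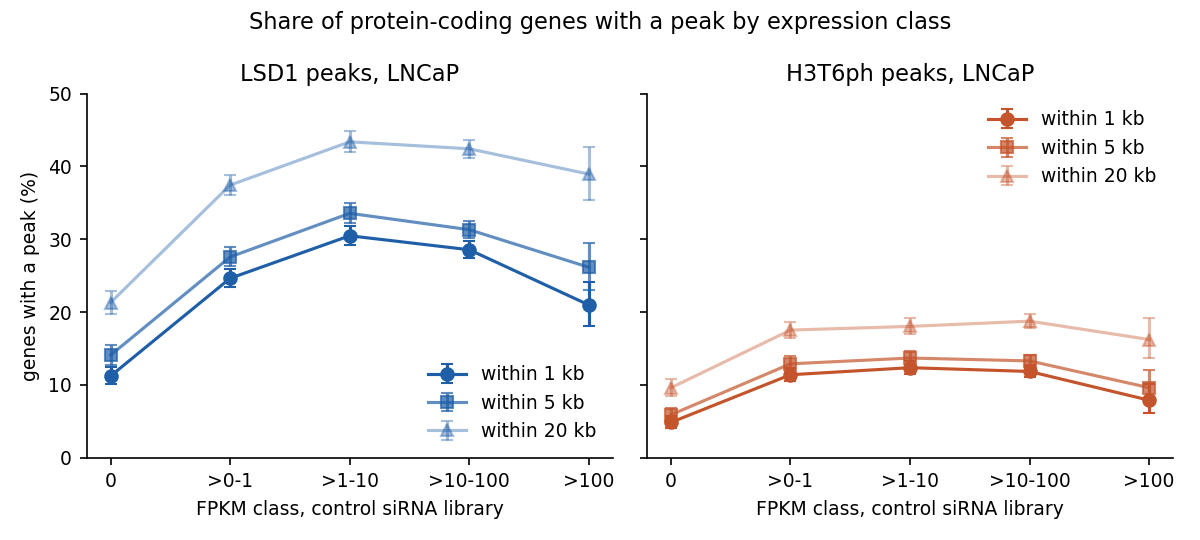
Share of protein-coding genes with a LNCaP LSD1 peak (left) or H3T6ph peak (right) within 1, 5 or 20 kb of the gene interval, in percent, for 5 FPKM classes of the control siRNA library; bars are 95% Wilson intervals. At every distance the class at 0 FPKM is the lowest, and at 1 kb the class above 100 FPKM lies below the 3 middle classes in both panels.

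Both peaks together were found at 6.05% of all genes within 1 kb, 6.69% within 5 kb and 9.64% within 20 kb. At 1 kb the shares in rising order of class were 2.35, 6.95, 7.51, 6.12 and 3.88%. Genes with an LSD1 peak carried H3T6ph in 23.8% of cases, against 6.29% of genes without one, and the contrast was present in each class. Above 100 FPKM it was 18.5% of 146 genes with LSD1 against 5.09% of 550 without, and at 0 FPKM 21.0% of 291 against 2.83% of 2300. Longer intervals hold more of either peak. The median interval was 173 kb for genes with both and 19.0 kb for genes with neither. Of genes with intervals over 98.3 kb, 794 of 2238 with LSD1 had H3T6ph, while 263 had H3T6ph only and 1187 neither. Below 7.87 kb, 14 of 198 genes with LSD1 had H3T6ph, while 60 had H3T6ph only and 3430 neither. The shares given for all genes and by class do not take length into account, and its part in the contrast was not tested. A site where the peaks themselves overlapped lay within 1 kb of 1.92% of all genes. That share was 0.733% at 0 FPKM, 1.68% above 0 to 1, 2.65% above 1 to 10, 2.07% above 10 to 100 and 1.72% above 100 FPKM.

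The classes differed in the length of their genes. The median interval was 9.03 kb at 0 FPKM, 30.2 kb above 0 to 1, 40.7 kb above 1 to 10, 32.4 kb above 10 to 100 and 14.2 kb above 100 FPKM. Genes were therefore divided into 5 equal groups by interval length, with limits at 7.87, 19.9, 42.3 and 98.3 kb. In the longest group LSD1 was within 1 kb of 52.6% of genes at 0 FPKM, 58.5% above 0 to 1, 63.3% above 1 to 10, 62.0% above 10 to 100 and 75.5% above 100 FPKM. The last share rests on 37 of 49 genes (61.9 to 85.4%). In the shortest group the same shares were 1.83, 4.15, 8.32, 9.38 and 7.95%. Length moved the share far more than expression did.

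Averaged over the 5 length groups with equal weight, the LSD1 share within 1 kb went up in every step of expression. It was 17.3% at 0 FPKM, 22.6% above 0 to 1, 26.8% above 1 to 10, 28.5% above 10 to 100 and 31.3% above 100 FPKM. The highest class then exceeded the class at 0 FPKM by 14.0 points (9.97 to 17.8). It also exceeded the class above 1 to 10 FPKM, by 4.46 points (0.641 to 8.12), so the direction of that comparison turned in the average. Against the class above 10 to 100 FPKM the difference was 2.81 points, and its interval of -0.976 to 6.45 included 0. The rise to the highest class was not seen in every length group. Below 19.9 kb its shares of 7.95 and 12.1% lay under the 8.32 and 12.8% above 1 to 10 FPKM. In the longer groups they were 24.8, 36.1 and 75.5%, against 17.7, 32.1 and 63.3%. The highest class had 239 and 174 genes in the shorter groups and 49 in the longest, all weighted equally. For H3T6ph the averaged shares were 7.46, 10.1, 10.8, 12 and 12.2%. Above 100 FPKM against 0 FPKM this gave 4.75 points (1.74 to 8.48), and against above 1 to 10 FPKM 1.39 points (-1.42 to 5.04).

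**Figure D2:**
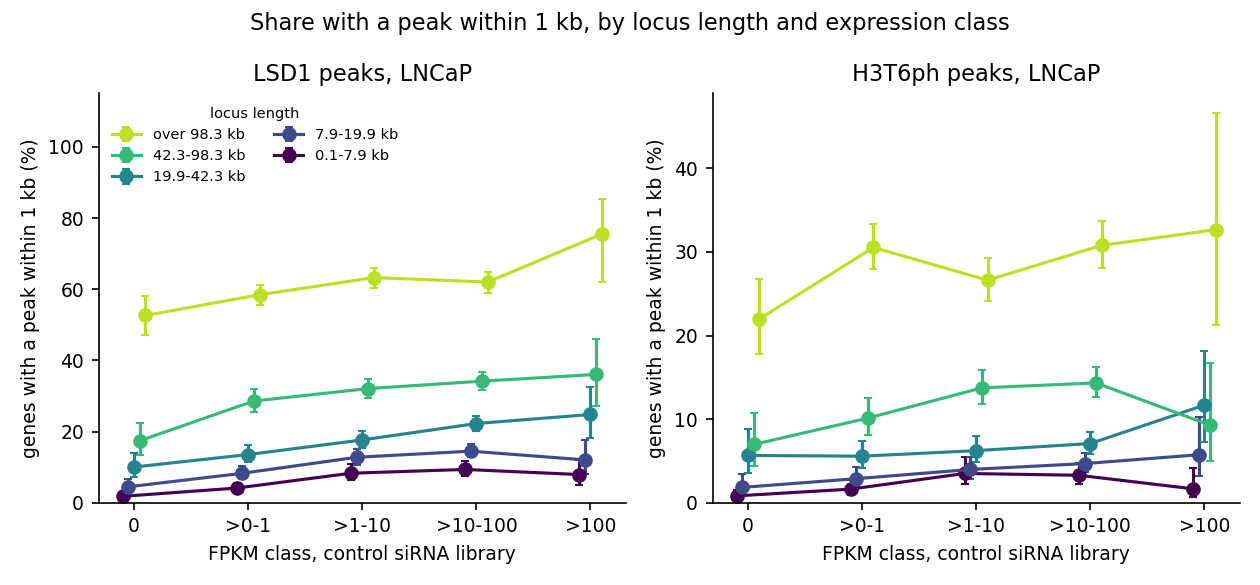
Share of genes with an LSD1 peak (left) or H3T6ph peak (right) within 1 kb, in percent, by FPKM class and by 5 equal groups of interval length; bars are 95% Wilson intervals and the vertical scales of the panels differ. Lines for longer genes lie above those for shorter genes for LSD1, with 75.5% of the 49 longest genes above 100 FPKM bound, and most lines climb from 0 to 10 FPKM.

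The ends of the intervals showed another order. The intervals carry no strand and can join neighbouring genes, so an end need not be a promoter of the gene. An LSD1 peak lay within 1 kb of an end for 6.94% of all genes, and an H3T6ph peak for 1.81%. For LSD1 the shares were 2.62% at 0 FPKM, 4.0% above 0 to 1, 9.03% above 1 to 10, 9.28% above 10 to 100 and 7.18% above 100 FPKM. For H3T6ph they were 0.772, 0.931, 2.24, 2.46 and 2.73%. Both lists thus had a step at 1 FPKM, and the intervals of the 3 classes above it overlapped within each list.

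Inside the intervals the density of peaks was higher in each higher class. It was 2.69 LSD1 peaks per Mb at 0 FPKM, 4.14 above 0 to 1, 5.30 above 1 to 10, 6.42 above 10 to 100 and 8.01 above 100 FPKM. The exact 95% Poisson intervals of neighbouring classes did not overlap, and the interval of the highest class was 6.88 to 9.28. H3T6ph had 1.03, 1.49, 1.78, 2.35 and 2.70 peaks per Mb in the same order, with overlapping intervals only between the 2 highest classes. The class above 100 FPKM covered 22.2 Mb in 687 intervals, with 178 LSD1 and 60 H3T6ph peaks. Intervals shared by several genes were counted once, under the most expressed gene.

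**Figure D3:**
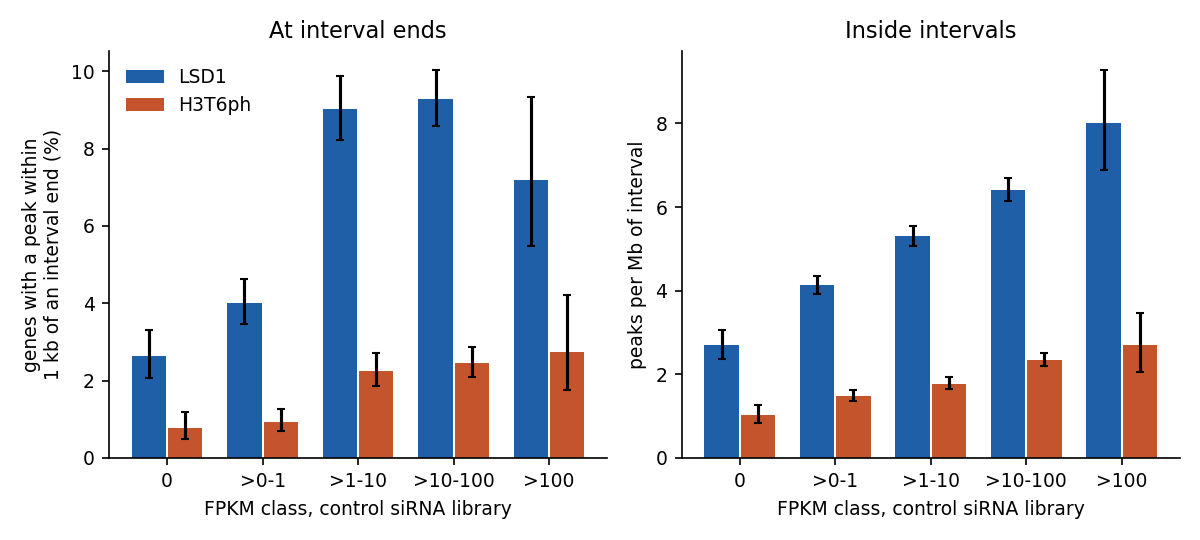
Left, share of genes with a peak near an interval end (1 kb or less), in percent, with 95% Wilson intervals; right, LSD1 and H3T6ph peaks per Mb of gene interval with exact 95% Poisson intervals; both by FPKM class of the control siRNA library. Shares at ends step up above 1 FPKM, while the LSD1 density inside intervals reaches 8.01 per Mb above 100 FPKM against 2.69 at 0 FPKM.

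Seen from the peaks, 49.9% of LSD1 peaks and 46.4% of H3T6ph peaks overlapped a protein-coding interval, and 64.5% and 62.0% lay within 20 kb of one. Of the overlapping LSD1 peaks, 4.33% fell in genes at 0 FPKM, 24.7% above 0 to 1, 30.6% above 1 to 10, 37.3% above 10 to 100 and 3.06% above 100 FPKM. For overlapping H3T6ph peaks these shares were 4.69, 25, 28.9, 38.5 and 2.90%. The lists differed little in the expression of the genes they fell in. Genes with LSD1 within 1 kb had a median of 6.56 FPKM, those with H3T6ph 6.08, those with both 5.36 and those with neither 3.47 FPKM. Of genes with LSD1 70.6% were above 1 FPKM, against 58.5% of genes with neither. The quartiles were wide, 0.461 to 18.8 FPKM with LSD1 and 0.0503 to 17.3 FPKM with neither.

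The authors' score of a peak, whose scale the files do not state, was used to rank peaks within a list. Of 190 LSD1 peaks within 1 kb of a gene above 100 FPKM, 14.7% were in the upper quartile of the list's scores (10.4 to 20.5%). The share was 24.7% (20.5 to 29.3%) of 369 peaks near genes at 0 FPKM and 26.4% of 5621 peaks with no gene within 1 kb. H3T6ph peaks ran the other way in value. Of 63 peaks near genes above 100 FPKM 31.7% were in the upper quartile (21.6 to 44.0%), against 20.4% (14.5 to 28.0%) of 137 near genes at 0 FPKM, and these intervals overlap.

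LSD1 peaks of VCaP cells were set on the same LNCaP classes, to set the outline beside that of a list from another line. A VCaP LSD1 peak lay within 1 kb of 24.6% of all genes. The shares were 9.73% at 0 FPKM, 21.6% above 0 to 1, 29.9% above 1 to 10, 28.9% above 10 to 100 and 25.7% above 100 FPKM. Without averaging over length groups, a low silent class and a maximum in the middle were therefore present in both lists. Averaged over the 5 length groups, the VCaP share within 1 kb was 14.4% at 0 FPKM, 27.2% above 1 to 10 and 32.9% above 100 FPKM. The highest class then exceeded the class above 1 to 10 FPKM by 5.69 points (1.67 to 9.72). In the averages of both lists the silent class stayed the lowest, and the maximum in the middle was gone. At gene ends the LNCaP list was the sparser, with 6.94% of all genes against 10.7% for the VCaP list. Above 100 FPKM an LSD1 peak within 1 kb of an end was found for 7.18% of genes in LNCaP (5.49 to 9.35%) and 16.1% in VCaP (13.5 to 19.0%). VCaP expression was not measured, and with 1 sample per line the difference has no replicate check.

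Among the 696 genes above 100 FPKM, 27 had both peaks within 1 kb, 119 had LSD1 only, 28 had H3T6ph only and 522 had neither. The most expressed genes with both were RPL31 (1583 FPKM), RPS10 (1008 FPKM) and RPL5 (636 FPKM), which encode ribosomal proteins, FAM162A (603 FPKM), a mitochondrial protein induced by hypoxia, and ABHD2 (550 FPKM), a lipase. For the 3 ribosomal genes the interval is shared with a longer neighbour, TBC1D8 for RPL31, NUDT3 for RPS10 and DIPK1A for RPL5. Their intervals of 129 to 149 kb make it uncertain which gene the peaks belong to. FAM162A has an interval of its own, chr3:122103023-122128961 (hg19). Its LSD1 peak at chr3:122117688-122118655, with a score of 65.4, covered the H3T6ph peak at chr3:122117836-122118117, with a score of 87.9. ABHD2, at chr15:89631381-89745591, held 2 peaks of each list. An overlapping site lay within 1 kb of 12 genes above 100 FPKM. Besides RPL31 and FAM162A, named after their values were seen, these included CYB5A (302 FPKM), a cytochrome, and SPINT2 (263 FPKM), a protease inhibitor.

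The most expressed genes with LSD1 only were RPS24 (2350 FPKM), RPL36 (2035 FPKM), TPT1 (1886 FPKM), RPL17 (1760 FPKM) and RPS14 (1636 FPKM). TPT1 encodes a calcium-binding protein tied to translation, and the other 4 encode ribosomal proteins. RPL36 has an interval of only 1.41 kb, chr19:5690272-5691678 (hg19), and the LSD1 peak at chr19:5689807-5690360, with a score of 54.4, covered 1 end of it. The peaks of TPT1, RPL17 and RPS24 scored between 52.8 and 53.1, near the list's minimum of 50. The RPS14 peak, at chr5:149829477-149830149 and 0.157 kb from the interval, scored 141. In all 50 genes above 100 FPKM had an LSD1 peak within 1 kb of an end. They also included TPI1 (988 FPKM), a glycolytic enzyme, SCD (285 FPKM), the stearoyl-CoA desaturase, and TMEFF2 (236 FPKM), a prostate-rich membrane protein, all 3 named after their values were seen.

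The most expressed genes with H3T6ph only were PGK1 (1244 FPKM), KRT8 (929 FPKM), RPS7 (744 FPKM), KRT18 (620 FPKM) and HSP90B1 (446 FPKM). PGK1 encodes the glycolytic enzyme phosphoglycerate kinase. Its H3T6ph peak at chrX:77359201-77359934 (hg19) covered 1 end of the interval, chrX:77359666-77382324, and scored 846, against a list median of 60.8. The nearest LSD1 peak was 1288 kb away. KRT8 and KRT18, the keratins of luminal epithelium, share 1 interval of 55.7 kb and the same H3T6ph peak, with a score of 64.2. HSP90B1 encodes the endoplasmic reticulum chaperone GRP94. In all 19 genes above 100 FPKM had H3T6ph within 1 kb of an end. Among them, chosen after their values were seen, were FOXA1 (163 FPKM), a pioneer transcription factor of prostate epithelium, and CCND1 (163 FPKM), cyclin D1.

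The most expressed genes of all had neither peak within 20 kb. They were RPL41 (4776 FPKM), RPS27 (4406 FPKM), GAPDH (3800 FPKM), FTH1 (3429 FPKM) and EEF1A1 (3022 FPKM), which encode ribosomal proteins, a glycolytic enzyme, the ferritin heavy chain and a translation elongation factor. Their nearest LSD1 peaks were 63.3 kb (GAPDH) to 926 kb (EEF1A1) away. At EEF1A1 a VCaP LSD1 peak overlapped the interval. Among the genes closest to the class limits, GUCY1A1 was at 100.1 FPKM and METTL26 at 99.9, GLA at 10.0 and RNFT1 at 9.99, and RNFT2 at 1.00 and WTIP at 0.999 FPKM. None of these 6 had either peak within 1 kb, while GDF11, also at 10.0 FPKM, held an LSD1 peak.

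Some high-scoring peaks lay in the intervals of genes at 0 FPKM in this library, though such an interval can also hold an expressed gene. In the class at 0 FPKM the LSD1 peaks with the highest scores were at HK3 (408), UNC45B (381) and CPN2 (232). UNC45B encodes a chaperone of muscle myosin, at chr17:33474836-33516364 (hg19). Its LSD1 peak at chr17:33477842-33478487 overlapped an H3T6ph peak at chr17:33477930-33478725 that scored 345, the highest of its class. A VCaP LSD1 peak of 594 overlapped both. HK3, a hexokinase of blood cells, shares its interval with UNC5A, a netrin receptor at 0.129 FPKM. CPN2 encodes a subunit of plasma carboxypeptidase N. Its LSD1 peak, at chr3:194070833-194071747, lay near 1 end of the interval chr3:194060494-194072057. The nearest VCaP LSD1 peak was 136 kb from that interval. The next H3T6ph scores were at IGFL1 (174), a growth factor-like gene, and ZBTB7B (157), a transcription factor of T cell development. The interval of IGFL1 spans 126 kb, so it is uncertain which gene its peak belongs to.

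Above 0 to 1 FPKM, HFM1, a helicase of meiotic crossing over at 0.218 FPKM, held the peaks with the highest score of both lists in that class. These were an LSD1 peak of 895 at chr1:91852632-91853299 (hg19) and an H3T6ph peak of 1731, the maximum of its list, at chr1:91852677-91853251. A VCaP LSD1 peak at chr1:91852634-91853291, the maximum of that list at 2977, overlapped both. UNC5A followed for LSD1 with the peak it shares with HK3, and then RUNX1 (0.384 FPKM), a blood cell transcription factor, with 322. PDE3A (0.0715 FPKM), a phosphodiesterase, and PID1 (0.0377 FPKM) followed for H3T6ph with 828 and 582. At PDE3A and PID1 the H3T6ph peak also overlapped an LSD1 peak, with scores of 291 and 227. VCaP LSD1 peaks of 893 and 653 overlapped these sites too. Whether the signal at sites common to all 3 lists is specific to either antibody was not tested.

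Above 1 to 10 FPKM, DLG2 (1.79 FPKM), a synaptic scaffold of 2172 kb, had 14 LSD1 and 2 H3T6ph peaks, with maxima of 775 and 616. A VCaP LSD1 peak of 841 overlapped both of these top peaks. PWWP2A (6.20 FPKM), a histone variant reader, and PTPRE (2.41 FPKM), a tyrosine phosphatase, had LSD1 scores of 469 and 353. SLCO5A1 (3.41 FPKM), a transporter, and MAN1A1 (3.23 FPKM), a Golgi mannosidase, had H3T6ph scores of 646 and 443. VCaP LSD1 peaks of 604 and 973 overlapped those H3T6ph peaks, while PTPRE had no VCaP LSD1 peak within 20 kb. Above 10 to 100 FPKM the maxima were lower. For LSD1 they were 317 at ANP32E (17.0 FPKM), a histone chaperone, 271 at VRK3 (16.0 FPKM), a kinase, and 264 at LPAR6 (10.1 FPKM), which shares its interval with RB1. For H3T6ph they were 351 at ITPK1 (35.9 FPKM), an inositol kinase, 254 at ELL (12 FPKM), an elongation factor, and 238 at NEDD9 (13.3 FPKM), an adhesion scaffold. Above 100 FPKM the maximum was 192 for LSD1 and, at PGK1, 846 for H3T6ph.

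Genes known to be induced by androgen were expressed and often near peaks. The list held 49 genes with a median of 71.1 FPKM, against 4.57 FPKM for all genes, and 21 of them were above 100 FPKM. Within 20 kb 30 had LSD1 (61.2%, interval 47.2 to 73.6%), against 38.4% of all genes, and 19 had H3T6ph (38.8%, 26.4 to 52.8%), against 16.9%. Within 1 kb the counts were 19 and 11. Both peaks lay within 20 kb of 14 genes, against 9.64% of all genes, and 10 had an overlapping site within 20 kb, against 3.02% of all genes. Their median interval of 55.7 kb was longer than the 29.0 kb of all genes, and the part of length in these shares was not tested.

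At KLK3, the gene of prostate-specific antigen (chr19:51358171-51364020, hg19; 2474 FPKM), no peak lay within 1 kb. An LSD1 peak at chr19:51353751-51354592 was 3.58 kb away, with a score of 58.5, and overlapped an H3T6ph peak at chr19:51353697-51354477 with a score of 81.0. KLK2 (339 FPKM), its neighbouring protease gene, had LSD1 at 3.17 kb with a score of 126 and H3T6ph at 8.77 kb with a score of 107. TMPRSS2 (357 FPKM), the protease gene whose promoter drives ERG fusions in prostate cancer, had neither within 20 kb. Its nearest LSD1 and H3T6ph peaks were at 30.4 and 20.3 kb. FKBP5 (190 FPKM), a chaperone of steroid receptors at chr6:35541362-35704724, held 1 LSD1 peak of 50.7 and 2 H3T6ph peaks, of which the higher scored 272. At FKBP5 the LSD1 and H3T6ph peaks of LNCaP did not overlap each other. A VCaP LSD1 peak with a score of 84.4 overlapped the higher H3T6ph peak.

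Other induced genes with an overlapping site inside their interval, chosen after their values were seen, were ALDH1A3 (64.7 FPKM), an aldehyde dehydrogenase, ZBTB16 (38.2 FPKM), a transcription factor, and AFF3 (7.15 FPKM). The site lay 18.0 kb from SLC45A3 (173 FPKM), a prostate transporter. KRT8 and NDRG1 (815 FPKM), a stress-response gene, completed the 3 highest of the list, and NDRG1 had its nearest peaks at 29.4 kb for LSD1 and 25 kb for H3T6ph. Of the 15 kallikreins, secreted serine proteases clustered on chromosome 19, none had either peak within 1 kb, and the Wilson interval of that share reached 20.4%. Within 20 kb 4 had LSD1 (26.7%) and 6 had H3T6ph (40%), against 38.4% and 16.9% of all genes. As neighbours, these genes can be counted for the same peak. KLK2 and KLK4 had the same nearest H3T6ph peak, at chr19:51392591-51393531, so the counts stand for fewer sites than genes. The cluster held genes of opposite level, since KLK3, KLK2 and KLK4 (217 FPKM) were above 100 FPKM and 5 members were at 0.

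Of 17 genes reported as repressed by androgen, 8 had LSD1 (47.1%) and 5 had H3T6ph (29.4%) within 20 kb, against 38.4% and 16.9% of all genes. SOX4 (150 FPKM), MYC (93.5 FPKM) and CAMK2N1 (53.3 FPKM), transcription factors and a kinase inhibitor, were the highest. Only SOX4 of these 3 had a peak within 20 kb, of H3T6ph at 4.81 kb. Of the 4 UGT2B genes, which inactivate androgens and were led by UGT2B11 at 61.8 FPKM, none had either peak within 20 kb.

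KDM1A (chr1:23345941-23410184, hg19), at 37.0 FPKM, had no LSD1 peak within 20 kb, the nearest being 260 kb away, and an H3T6ph peak at 1.19 kb with a score of 51.1. In VCaP an LSD1 peak overlapped its interval. Of 28 genes for LSD1 and its partner complexes, 23 were between 10 and 100 FPKM and none above 100. Within 1 kb 12 of them had LSD1 (42.9%, 26.5 to 60.9%), against 25.4% of all genes. H3T6ph lay within 1 kb of 1 (3.57%, 0.633 to 17.7%), and the 10.7% of all genes falls in that Wilson interval. Within 20 kb 15 had LSD1 (53.6%) and 7 had H3T6ph (25%), against 38.4% and 16.9%. The median gene interval of the 28 was 51.2 kb, against 29.0 kb for all genes. All genes of 42.3 to 98.3 kb had LSD1 in 31.3% and H3T6ph in 12.7% within 1 kb. The part of length in these shares was not tested. HDAC1 (93.0 FPKM), a deacetylase of CoREST and NuRD, held 3 LSD1 peaks. HMG20B (89.8 FPKM), a CoREST subunit, had LSD1 at 6.33 kb, and ZNF217 (73.5 FPKM), a partner of CoREST, had neither within 20 kb. The only partner with H3T6ph within 1 kb was CTBP1 (52.3 FPKM), a corepressor, named after its values were seen, and it had LSD1 as well.

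Of 12 genes of the protein kinase C family and its relatives, which include the kinase reported to write H3T6ph, 8 had LSD1 (66.7%) and 5 had H3T6ph (41.7%) within 20 kb, against 38.4% and 16.9% of all genes. Among the most expressed were PRKCD (45.8 FPKM), with LSD1 at 14.9 kb and H3T6ph at 10.4 kb, and PRKCI (22.2 FPKM), with LSD1 at 4.02 kb. PRKCB, the gene of the beta isoform, was at 0.00775 FPKM and PRKCA, that of the alpha isoform, at 9.58 FPKM, both named after their values were seen. Both peaks lay inside PRKCE, PRKCH and PRKCZ, also chosen after the fact, and overlapped each other only at PRKCE. The median interval of the 12 genes was 153 kb. All genes with intervals over 98.3 kb had LSD1 in 66.9% and H3T6ph in 32.3% within 20 kb. Both values lie in the Wilson intervals of the 12 genes, 39.1 to 86.2% for LSD1 and 19.3 to 68.0% for H3T6ph. The part of length was not tested.

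Cytosolic ribosomal and oxidative phosphorylation genes combined high levels with smaller shares near peaks, in value, than all genes had. The 85 cytosolic ribosomal protein genes had a median of 1153 FPKM. Within 20 kb 27.1% had LSD1 (18.8 to 37.3%) and 7.06% had H3T6ph (3.28 to 14.6%), against 38.4% and 16.9% of all genes. Their median interval was 5.14 kb. Genes above 100 FPKM in the shortest length group had LSD1 in 29.3% and H3T6ph in 11.3% within 20 kb, and both values lie in those intervals. RPL41, RPS27 and RPL37A (2482 FPKM) were the highest, with neither peak within 20 kb. RPL21 was listed at 0 FPKM, which can be a failed estimate since every cell uses this gene. Subunits of oxidative phosphorylation, 92 genes at a median of 95.3 FPKM and with a median interval of 11.4 kb, had LSD1 in 28.3% and H3T6ph in 12% within 20 kb. COX7C (1227 FPKM), NDUFB4 (716 FPKM) and ATP5F1B (631 FPKM) were the highest of these and had neither. All genes with intervals of 7.87 to 19.9 kb had LSD1 in 28.4% and H3T6ph in 10.6% within 20 kb. Both values lie in the Wilson intervals of the 92 genes, 20.1 to 38.2% for LSD1 and 6.81 to 20.2% for H3T6ph.

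Of 17 glycolytic genes, at a median of 457 FPKM, 5 had LSD1 (29.4%) and 2 had H3T6ph (11.8%) within 20 kb, against 38.4% and 16.9% of all genes, and GAPDH, ALDOA (2025 FPKM) and ENO1 (1803 FPKM) had neither. The 37 proteasome genes (73.8 FPKM), led by PSMA6 (273 FPKM), PSMB4 (265 FPKM) and PSMB1 (175 FPKM), had LSD1 in 16 (43.2%, above the share of all genes) and H3T6ph in 4 (10.8%). The 76 mitochondrial ribosomal genes (35.8 FPKM), led by MRPS21 (180.1 FPKM), MRPL41 (144 FPKM) and MRPL20 (142 FPKM), had LSD1 in 26 (34.2%) and H3T6ph in 13 (17.1%). Among 378 solute carriers the median was 3.08 FPKM, and 41.5% had LSD1 and 20.1% H3T6ph. SLC25A3 (197 FPKM) and SLC25A5 (191 FPKM), carriers of the inner mitochondrial membrane, were the highest and had neither. The 489 ZNF zinc finger genes had a median of 5.38 FPKM, with LSD1 at 28.2% and H3T6ph at 13.3%. They were led by ZNF207 (82.9 FPKM), ZNF217 and ZNF664 (64.4 FPKM), the last of which held both peaks in an interval of 343 kb that it shares. Of 78 histone genes (1.34 FPKM), with a median interval of 0.471 kb, 14 had LSD1 (17.9%) and 13 H3T6ph (16.7%) within 20 kb. H2AZ1 (880.5 FPKM), H4C8 (262 FPKM) and H3-3B (193 FPKM), the highest, had neither.

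**Figure D4:**
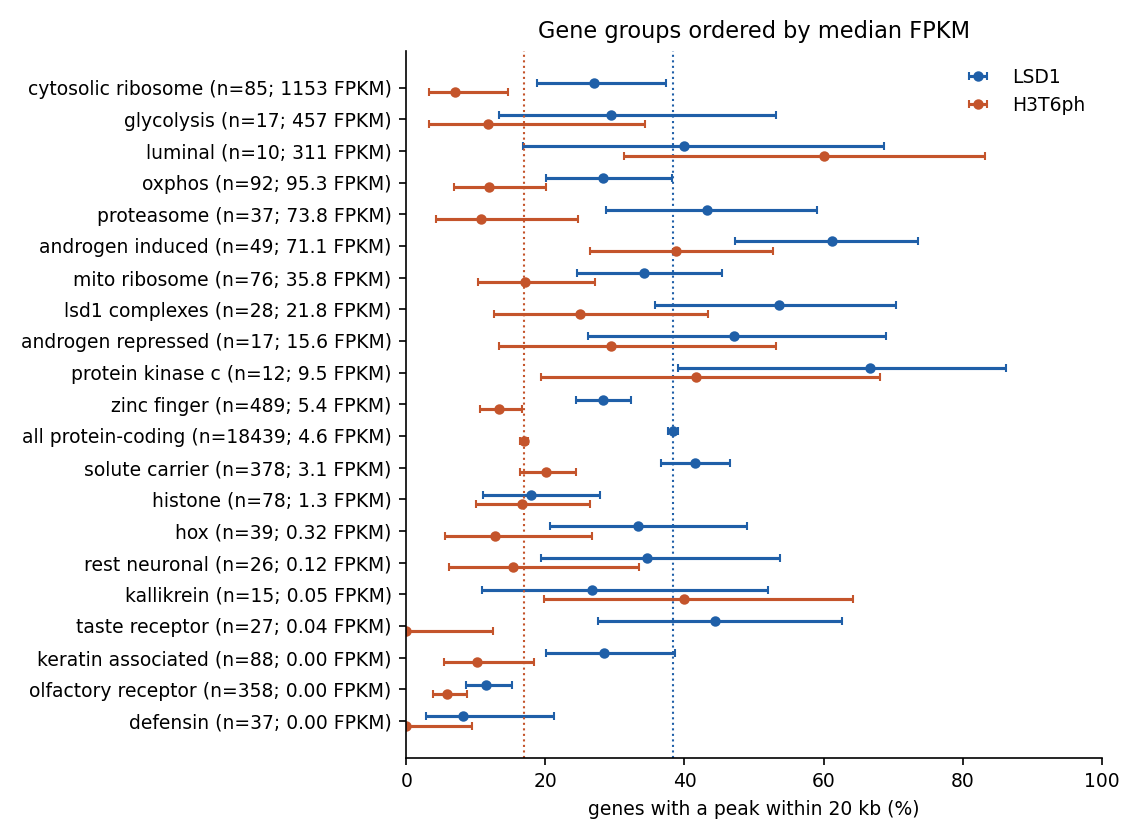
Share of the genes of each group with an LSD1 or H3T6ph peak within 20 kb, in percent with 95% Wilson intervals; groups run from the highest median FPKM of the control siRNA library at the top to the lowest, with the number of genes and the median FPKM beside each name. Dotted lines mark all protein-coding genes, at 38.4% for LSD1 and 16.9% for H3T6ph. The androgen-induced genes lie above both lines and the cytosolic ribosomal genes below both. Interval length differs between the groups and is not taken into account.

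Olfactory receptor, defensin and keratin-associated genes were mostly at 0 FPKM, whereas of 27 taste receptors 10 were at 0, 11 above 0 to 1 and 6 above 1 to 10 FPKM. Of 358 olfactory receptor genes 305 were at 0 FPKM, and 11.5% had LSD1 and 5.87% H3T6ph within 20 kb, against 38.4% and 16.9% of all genes. Their median interval was only 0.951 kb. Genes at 0 FPKM in the shortest length group had near shares, of 11.9% for LSD1 and 6.73% for H3T6ph. OR51E2 (2.89 FPKM) and OR51E1 (1.68 FPKM), known as prostate-expressed receptors, were the highest, followed by OR2A7 (0.754 FPKM). OR51E2 had an LSD1 peak at 1.50 kb with a score of 118. Of 37 defensins, with a median interval of 3.36 kb, 33 were at 0, and 3 had LSD1 and none H3T6ph within 20 kb. DEFB132 (3.79 FPKM), DEFB126 (2.46 FPKM) and DEFB131B (0.874 FPKM) were the highest. Of 88 keratin-associated genes 77 were at 0, and 22 had LSD1 within 1 kb. Those 22 stand for 2 intervals, 1 shared by 16 genes on chromosome 21 and 1 shared by 6 on chromosome 11. KRTAP5-1 (8.21 FPKM) and KRTAP5-2 (3.61 FPKM) belong to the 6, and KRTAP5-9 (0.646 FPKM) had neither peak within 20 kb. Likewise the 9 taste receptors with LSD1 within 1 kb, among them TAS2R20 (1.84 FPKM) and TAS2R19 (1.74 FPKM), share 1 interval on chromosome 12, and TAS2R5 (2.05 FPKM) had none within 20 kb.

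Of 39 HOX genes (median 0.320 FPKM) 13 had LSD1 (33.3%) and 5 had H3T6ph (12.8%) within 20 kb, against 38.4% and 16.9% of all genes. HOXB13 (77.5 FPKM), the prostate lineage factor, had LSD1 at 16.6 kb, while HOXC6 (20.9 FPKM) and HOXC4 (7.98 FPKM) shared an interval and 1 H3T6ph peak. Of 26 neuronal genes known as targets of the repressor REST (median 0.123 FPKM), 9 had LSD1 (34.6%) and 4 had H3T6ph (15.4%) within 20 kb. SYT4 (151 FPKM) and TUBB3 (35.6 FPKM), the highest, had neither, and CPLX1 (11.9 FPKM) held an LSD1 peak and had H3T6ph at 2.96 kb. The luminal markers had LSD1 in 4 and H3T6ph in 6 of 10 within 20 kb. The other marker lists hold too few genes to set beside the shares of all genes. Their counts for LSD1 and H3T6ph were 1 and 1 of 5 basal, 2 and 0 of 5 neuroendocrine, 1 and 0 of 5 fibroblast and muscle, 2 and 0 of 5 immune and 2 and 0 of 4 endothelial markers.

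Shares also differed between chromosomes. On chromosome X 7.61% of 762 genes had LSD1 within 1 kb (5.93 to 9.71%) and 2.36% had H3T6ph (1.50 to 3.70%), against 25.4% and 10.7% of all genes. The median interval there was 23.3 kb, and 49.9% of its genes were above 1 FPKM. Chromosome 18 had LSD1 at 42.7% of 255 genes and chromosome 19 at 13.7% of 1339, with median intervals of 56.5 and 14.8 kb. The cause of these differences was not tested.

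Promoter windows were available for 14763 of the 18439 genes (80.1%), as 250 bases before to 50 after a start, from RefSeq on GRCh38.p14. Because peaks are placed on hg19, the position of a peak within a window was not determined. Windows with a CpG ratio (observed over expected from the C and G content) above 0.6 made up 23.7% at 0 FPKM, 45.4% above 0 to 1, 78.1% above 1 to 10, 88.7% above 10 to 100 and 87.7% above 100 FPKM. The letters TATAAA on either strand were found in 22.7, 12.8, 5.89, 4.42 and 9.40% of windows, and in 9.31% of all windows. The hexamer AGAACA of the androgen response element, on either strand, was found in 17.3, 13.6, 9.04, 8.55 and 9.06%, and in 11% of all. The full androgen response element in its exact form, that hexamer followed by a spacer of 3 bases and its inverted copy, was in no window. So long an exact pattern is rarely met, and elements that differ from it by a base were not searched. Its absence therefore does not show that these windows lack androgen response elements.

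Windows of named genes are given 5′ to 3′ to show the range of promoter types, with the dinucleotide CG in capitals. They are those of a ribosomal gene with LSD1 at 1 end (RPL36), a glycolytic gene with the top H3T6ph score of its class (PGK1), an androgen target (KLK3), a gene far from both lists (GAPDH) and a gene at 0 FPKM with LSD1 (CPN2).
RPL36: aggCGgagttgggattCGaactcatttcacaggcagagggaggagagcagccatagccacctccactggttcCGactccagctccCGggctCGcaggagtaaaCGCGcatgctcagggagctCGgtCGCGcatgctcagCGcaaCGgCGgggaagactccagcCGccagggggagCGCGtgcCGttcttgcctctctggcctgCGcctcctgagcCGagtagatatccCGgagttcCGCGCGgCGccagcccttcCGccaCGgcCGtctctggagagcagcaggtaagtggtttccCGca
PGK1: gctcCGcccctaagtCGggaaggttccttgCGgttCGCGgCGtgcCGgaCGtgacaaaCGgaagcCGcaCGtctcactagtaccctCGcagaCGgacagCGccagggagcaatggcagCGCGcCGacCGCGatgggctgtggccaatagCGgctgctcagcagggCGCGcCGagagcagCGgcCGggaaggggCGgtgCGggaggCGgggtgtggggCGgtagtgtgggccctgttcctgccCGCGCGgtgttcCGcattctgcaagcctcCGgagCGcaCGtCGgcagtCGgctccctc
KLK3: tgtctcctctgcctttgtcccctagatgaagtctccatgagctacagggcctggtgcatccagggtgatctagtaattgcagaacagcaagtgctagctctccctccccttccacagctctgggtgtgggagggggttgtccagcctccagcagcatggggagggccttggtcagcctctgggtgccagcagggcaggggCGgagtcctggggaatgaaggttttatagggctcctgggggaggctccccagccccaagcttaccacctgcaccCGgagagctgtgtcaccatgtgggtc
GAPDH: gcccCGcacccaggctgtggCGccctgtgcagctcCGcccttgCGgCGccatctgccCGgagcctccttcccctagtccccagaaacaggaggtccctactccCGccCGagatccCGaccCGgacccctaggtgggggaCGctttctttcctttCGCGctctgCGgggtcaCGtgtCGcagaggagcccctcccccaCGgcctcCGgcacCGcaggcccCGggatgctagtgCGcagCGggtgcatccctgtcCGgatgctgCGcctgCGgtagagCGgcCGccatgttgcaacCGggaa
CPN2: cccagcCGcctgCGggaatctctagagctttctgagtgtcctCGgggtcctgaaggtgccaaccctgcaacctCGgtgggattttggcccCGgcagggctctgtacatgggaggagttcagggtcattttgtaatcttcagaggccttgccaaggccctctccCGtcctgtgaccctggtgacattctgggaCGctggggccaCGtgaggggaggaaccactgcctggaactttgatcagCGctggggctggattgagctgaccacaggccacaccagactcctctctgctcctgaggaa
The windows of RPL36, PGK1 and GAPDH held 28, 38 and 28 CG dinucleotides, with CpG ratios of 0.866, 1.03 and 0.761. Those of KLK3 and CPN2 held 2 and 9, with ratios of 0.0719 and 0.330. The KLK3 window alone among the 5 held TATAAA, read on the reverse strand, and the hexamer AGAACA. Of the 5 genes, KLK3 and CPN2, with the lowest CpG ratios, were at 2474 and 0 FPKM.

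LSD1 at an end was more frequent in value at CpG-rich windows in the classes up to 100 FPKM. Over all classes it was 8.51% of 9972 genes above the ratio of 0.6 (7.98 to 9.08%), against 4.63% of 4791 at or below it (4.07 to 5.27%). Above 1 to 10 FPKM it was 9.71% against 6.67%, and at 0 FPKM 3.40% against 2.76%, where the intervals overlap. Within CpG-rich windows the share was 3.40% at 0 FPKM, 4.94% above 0 to 1, 9.71% above 1 to 10, 9.55% above 10 to 100 and 7.6% above 100 FPKM. Within the other windows it was 2.76, 3.82, 6.67, 8.73 and 8.33%. The step at 1 FPKM was thus present in both kinds of window. H3T6ph at an end was found for 2.04% of CpG-rich windows and 1.15% of the others. Above 100 FPKM, TATAAA was found in 22.2% of 45 windows of genes with LSD1 at an end, against 8.33% of 540 without, a contrast that rests on 10 genes. Over all classes the values ran the other way, at 6.82% of 1071 windows with LSD1 at an end and 9.51% of 13692 without. The intervals above 100 FPKM were 12.5 to 36.3% with LSD1 and 6.29 to 11% without. Over all classes they were 5.46 to 8.48% and 9.03 to 10.0%. At 0 FPKM the shares were 15.5% of 58 windows with LSD1 at an end and 22.9% of 1933 without.

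**Figure D5:**
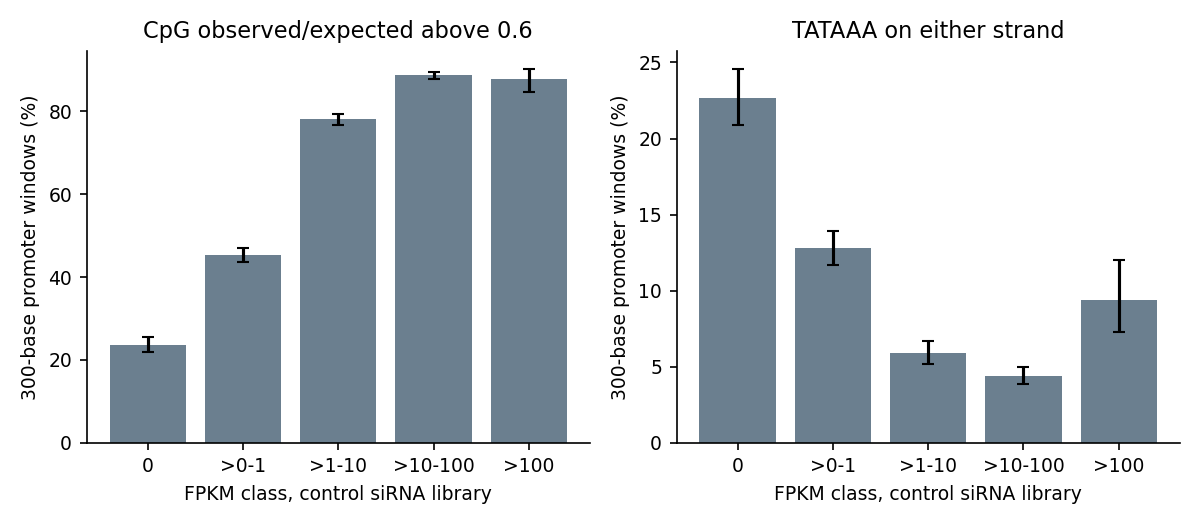
Share of RefSeq promoter windows of 300 bases with a CpG observed over expected ratio above 0.6 (left) and with the letters TATAAA on either strand (right), in percent with 95% Wilson intervals, by FPKM class of the control siRNA library. The CpG share lies between 78.1 and 88.7% in the classes above 1 FPKM and is 23.7% at 0 FPKM; the TATAAA share is 9.40% above 100 FPKM and 22.7% at 0 FPKM.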

How the data were processed

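Sequencing of RNA and of chromatin immunoprecipitates was done on LNCaP and VCaP cells, with the ThruPLEX-FD kit for ChIP-seq and the TruSeq RNA kit v2, which does not mark strand, per the labels' protocols. Cuffdiff 2.0.1, TopHat2 2.0.4, Bowtie2 2.0.0, MACS2 (no version) and the build hg19 are listed in the submitters' processing notes. Expression was deposited as FPKM per RefSeq accession, and the columns have the layout that Cuffdiff writes, per the file headers. Peaks were deposited as 1 list per sample with a score by the authors, whose scale is not stated. Not given in the sources used here were the control track, the peak threshold, duplicate handling and the annotation version.

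Of 40253 accessions, 38934 (96.7%) were matched to a symbol through RefSeq names of GRCh38.p14, which served for names, gene types and promoter windows only. The other 1319 were not analysed by gene. Of 18674 protein-coding symbols 37 were left out for a failed accession. Positions are intervals without strand that can span overlapping transcripts. They came to 16907 distinct intervals for the scored genes, and 2687 genes shared one. Distances ran from the interval to the peak, with 0 inside. Shares carry 95% Wilson intervals, differences Newcombe intervals and densities exact Poisson intervals. These cover counting error only, and neighbouring genes are not independent. Averages over length groups combine the Wilson intervals of the groups. Since each group is 1 library or 1 peak list, no replicate spread exists and no p-value was computed. Fragment counts were estimated from 42 olfactory receptor genes, all 42 whole within 0.05. Above 0, 2013 genes were under 0.1 FPKM.

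Named genes were KLK3, KLK2, TMPRSS2, FKBP5 and KDM1A, the 5 highest genes above 100 FPKM with both peaks, with either alone and with neither within 20 kb, the 3 genes of each other class at the highest-scoring peaks of either list, and the 3 highest of each of 26 gene lists. Members and lists were chosen with earlier results of these data known. Genes of chromosome Y and readthrough genes were not named, and a few genes that the rule selects are not reported here. The scripts were tested on simulated data, and gene counts within each distance were checked with bedtools 2.31.1, using python 3.11.15, pandas 2.3.3 and scipy 1.17.1. The table holds 1 other column of sample values, that of the LSD1 siRNA library, which was not used.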

Additional observations from a re-analysis of the deposited data

How the results depend on the processing

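Differences are in percentage points, at 1, 5 and 20 kb unless given. For LSD1, genes above 100 FPKM against genes at 0 FPKM was positive in value in every alternative run, but at 1 kb the interval included 0 with all gene types (-1.44 to 4.19) and with as many LSD1 as H3T6ph peaks (-0.202 to 4.0). The difference was 1.25, 3.51 and 7.83 with all gene types, 2.63, 3.63 and 7.45 with peaks above the list's median score, and 1.71, 2.73 and 6.22 with as many LSD1 as H3T6ph peaks. It was 19.6, 22.4 and 29.3 for genes with no other protein-coding interval within 20 kb, and 4.60, 6.86 and 11.4 with a lowest class below 0.1 FPKM. It was 14.0 at 1 kb and 16.2 at 5 kb averaged over length groups, and 4.56 at 1 kb from interval ends. For H3T6ph the same difference turned negative with all gene types, at -0.867 and -0.267 for 1 and 5 kb, and was 2.56 at 20 kb. With a lowest class below 0.1 FPKM it was -0.0256, 0.547 and 3.16. With no other protein-coding interval nearby it was 2.69 (-1.26 to 8.96) at 1 kb. At 20 kb it was 3.64 with peaks above the median score and 10.4 for genes with no other interval nearby. Genes above 100 FPKM against those above 1 to 10 FPKM changed direction more often. For LSD1 the difference was -1.85, 0.534 and 0.984 from interval ends, 4.46, 5.92 and 7.41 averaged over length groups, and -4.41, -1.65 and 3.26 with no other interval nearby. For H3T6ph it was 0.494, 0.663 and 1.69 from ends, and 1.39, 1.36 and 2.81 over length groups. It was -1.59 at 1 kb with peaks above the median score, and -6.86 and -7.04 at 1 and 5 kb with no other interval nearby. The causes were not tested. Comparisons with the class above 1 to 10 FPKM, and the inclusion of genes off the assembled chromosomes, were chosen after seeing the data. No paired analysis was possible because each group holds 1 sample and no result comes from a test. The depth of the peak lists is unknown, so a gene without a peak may carry LSD1 or H3T6ph below the caller's threshold. Intervals without strand can join neighbouring genes, and expression and binding come from different cultures, 1 transfected and the others not.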
